A study of Homo sapiens with 12 samples.

Results

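The comparison was between U2OS cells transfected with an siRNA against DBP5 and U2OS cells transfected with a control siRNA, read as cytoplasmic RNA on 1-colour arrays. The arrays were chosen by their labels: 3 carried cytoplasmic RNA of the DBP5 siRNA and 3 that of the control siRNA, 6 of the 12 arrays of the series, and each DBP5 array shared a slide with the control array of the same number. U2OS is a human osteosarcoma line. Each siRNA was used at 20 nM with a lipid reagent, the study's methods for cytoplasmic RNA give 48 h of culture after transfection, and the cytosol was separated from the nuclei with a lysis buffer holding NP40. The other 6 arrays carried RNA of cells given siRNA against GLE1 or IPPK, 3 each. The study's methods speak of independent array experiments, the labels do not name separate cultures, and p-values then measure the spread between these arrays. One siRNA, DBP5 #1, stands for the knock-down, the control sequence used on the arrays is not given in the sources used here, and fewer cells of a kind and less RNA per cell cannot be told apart in such bulk RNA.

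DBP5 is a DEAD-box RNA helicase that works at the cytoplasmic face of the nuclear pore, docked on the nucleoporin NUP214. Its ATPase is stimulated by GLE1 together with inositol hexakisphosphate, which the kinase IPPK makes, and it strips export proteins from mRNA as the particle leaves the pore. In human cells the protein is encoded by DDX19B, next to the near-identical DDX19A. It is also known for a part in translation termination. The question the comparison addresses is which mRNAs change in the cytoplasm when DBP5 is low.

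The siRNA is printed because every difference below was measured after this one duplex. Its antisense strand has bases 2 to 8 in capitals, and 25 of its 27 bases pair with the sense strand. The capitals mark a position in the strand as ordered. Whether these bases pair first with a target RNA in cells was not tested.
DBP5 #1 sense: caagguguuuguucuggaugaggct
DBP5 #1 antisense: aGCCUCAUccagaacaaacaccuugau

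The share of gene spots well above background was 76.3 to 78.7% on control and 77.1 to 79.0% on DBP5 arrays, and no spot was saturated. Arrays of one siRNA correlated across genes at 0.9959 to 0.9960 (DBP5) and 0.9961 to 0.9972 (control), and arrays of different siRNA at 0.9787 to 0.9825. Of 14 markers of mesenchymal cells and osteoblasts 12 were above background on all 6 arrays, among them VIM, SPARC and RUNX2, and IBSP was above it on none. Markers of other cell types were also detected, 5 of 6 haematopoietic, 5 of 7 epithelial and 3 of 5 endothelial. Their summed intensities ranged from 277 to 334 (control) and 271 to 354 (DBP5) for haematopoietic markers, from 5410 to 5500 and 4540 to 5650 for epithelial ones, and from 297 to 337 and 207 to 265 for endothelial ones, and their part in the results was not tested. Each siRNA held the same position on every slide, so array position and siRNA cannot be told apart.

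DDX19B mRNA was the first check of the labels. Its level, the log2 of the normalised intensity, was 10.23, 10.15 and 10.15 on control arrays 1 to 3 and 6.25, 6.21 and 6.20 on DBP5 arrays 1 to 3, so the groups lay far apart. The DBP5 to control ratio (from the mean log2 levels, with the SD over the DBP5 arrays) was 0.0643 ± 0.00121 (n = 3, adjusted p = 3.0e-11). DDX19A fell with it, from 12.80, 12.81 and 12.73 to 8.62, 8.57 and 8.49, a ratio of 0.0537 ± 0.00258 (adjusted p = 2.0e-11). The genes are near-identical, and whether each probe reads only its own gene was not tested. Both stayed lower than after either other siRNA, with DDX19B 2.93 log2 units below the GLE1 and 3.76 below the IPPK knock-down (adjusted p = 3.0e-10 and 5.0e-11).

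The partners of DBP5 did not move as a block. IPPK, the kinase that makes inositol hexakisphosphate, fell from 9.32, 9.43 and 9.47 to 8.21, 8.15 and 8.11 (ratio 0.420 ± 0.0142, adjusted p = 7.9e-08). A second IPPK probe gave a ratio of 0.590 ± 0.0730. GLE1, the activator, was at 8.29, 8.32 and 8.26 in control and at 7.78, 8.00 and 8.03 after DBP5 siRNA, where all DBP5 arrays lay below all control arrays but the test was missed (adjusted p = 0.0726). NUP214, the docking site, rose from 9.74, 9.72 and 9.86 to 10.33, 10.56 and 10.71 (ratio 1.70 ± 0.223, adjusted p = 2.4e-05). NUP214 was 0.15 log2 units higher than after GLE1 siRNA, which did not pass the test (adjusted p = 0.164), and 0.23 higher than after IPPK siRNA, which did (adjusted p = 0.0412).

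Across the 20818 genes kept, 5733 were lower after DBP5 knock-down (27.5%) and 5569 were higher (26.8%) at an adjusted p under 0.05 from limma, and 9516 did not pass. The median log2 difference of all genes was -0.02. On 15026 genes the difference had the same sign on all 3 slides. All DBP5 arrays lay below all control arrays for 6377 genes (30.6%) and above them for 5942 (28.5%). Past the test and at least 1.5-fold lower were 2521 genes (12.1% of all tested), and 2623 were at least 1.5-fold higher (12.6%). With normexp 1640 were lower and 1825 higher, and with the paired test of the study's general statistics, adjusted, 1625 and 1710. Levels are set so that the bulk of genes is level between arrays, so a shift shared by all cytoplasmic mRNA would not be seen.

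**Figure D1:**
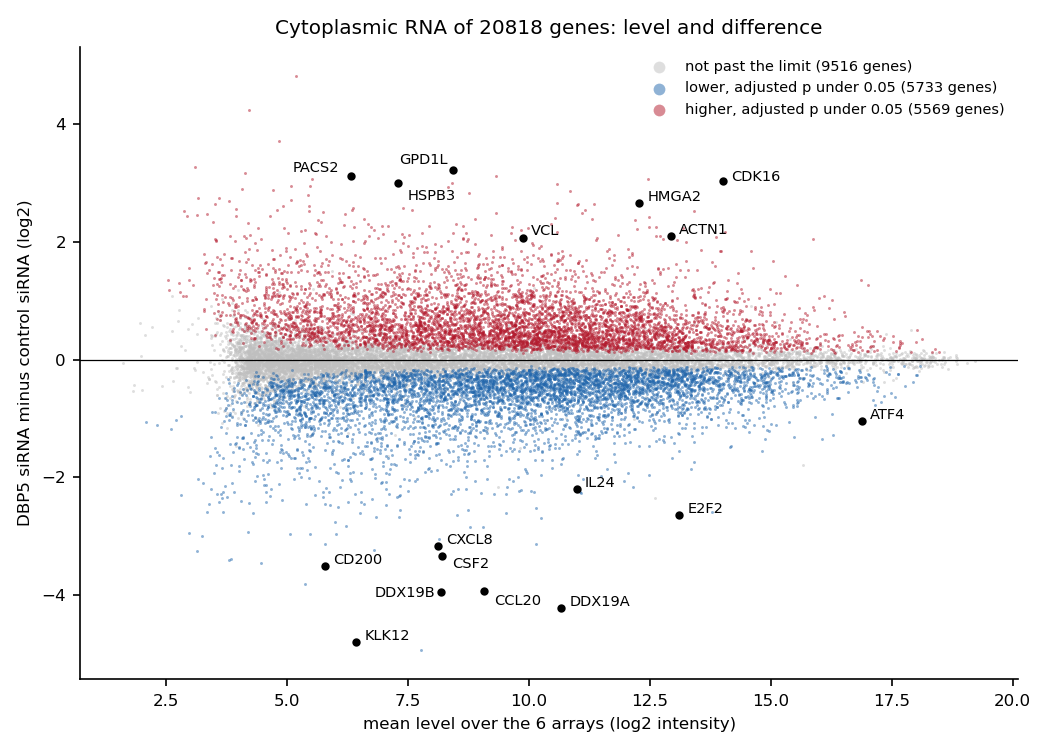
Each point is 1 of 20818 genes, with the mean log2 intensity over the 6 arrays on the x axis and the log2 difference, DBP5 siRNA minus control siRNA, on the y axis. Blue points (5733) were lower and red points (5569) higher at an adjusted p under 0.05; both reach across the range of levels, and DDX19A, DDX19B, KLK12 and CCL20 lie near the lower edge.

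Apart from DDX19A and DDX19B, the 12 largest falls among genes measured above background on all 6 arrays began with KLK12, CCL20 and CD200. KLK12, a secreted kallikrein protease, fell from 8.70, 8.94 and 8.85 to 4.11, 3.83 and 4.15 (ratio 0.0359 ± 0.00424, adjusted p = 9.8e-10). CCL20, a chemokine that draws CCR6-bearing lymphocytes, fell from 11.06, 11.08 and 10.94 to 7.37, 7.06 and 6.87 (ratio 0.0657 ± 0.0116). CD200, a surface glycoprotein that restrains myeloid cells, fell from 7.44, 7.59 and 7.58 to 3.95, 4.21 and 3.92 (ratio 0.0877 ± 0.0102). In these genes the highest DBP5 array lay more than 3 log2 units below the lowest control array. CSF2, the granulocyte-macrophage growth factor, had a ratio of 0.0990 ± 0.0106, and CXCL8, the neutrophil chemokine interleukin 8, one of 0.111 ± 0.00404. The acute phase protein gene SAA2 (0.127 ± 0.0339), the EGF receptor ligand EREG (0.140 ± 0.00734) and the lymphotoxin gene LTB (0.157 ± 0.00264) were in the same list. SAA2 shares much sequence with SAA1, so its value is uncertain as to which copy it reads. The list was completed by TRIM15 (0.114), GIMAP2 (0.128), the acyl-CoA synthetase ACSL5 (0.140) and APOL6. APOL6 varied most, at 9.95, 10.24 and 8.83 in control and 6.99, 7.28 and 5.59 after DBP5 siRNA (ratio 0.120 ± 0.0679, adjusted p = 1.9e-04), with slide 3 low in both groups.

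The largest rises held fewer genes of one kind. GPD1L, a glycerol-3-phosphate dehydrogenase, rose from 6.80, 6.85 and 6.86 to 10.04, 10.08 and 10.04 (ratio 9.28 ± 0.146, adjusted p = 7.8e-11). CDK16, a kinase of the PCTAIRE group, rose from 12.38, 12.58 and 12.53 to 15.48, 15.50 and 15.63 (ratio 8.23 ± 0.472). NXT2, a partner of the export receptor NXF1, rose from 6.85, 7.05 and 6.83 to 10.15, 9.80 and 9.79 (ratio 8.03 ± 1.20). All of these were raised on every DBP5 array, at low and at high levels alike. Ratios in the same range were found for PACS2 (8.65), the small heat shock protein HSPB3 (8.00), the aminopeptidase gene NPEPL1 (7.93), the calcineurin regulator RCAN2 (7.67), the GTPase RRAS2 (7.31) and the tubulin-modifying enzyme gene TTLL1 (7.11). HMGA2 had a ratio of 6.35, but other probes of this gene differed, as described at the end. HSPB3 was 2.49 log2 units lower than after GLE1 siRNA and 2.62 higher than after IPPK siRNA (adjusted p = 3.8e-08 and 5.6e-08).

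**Figure D2:**
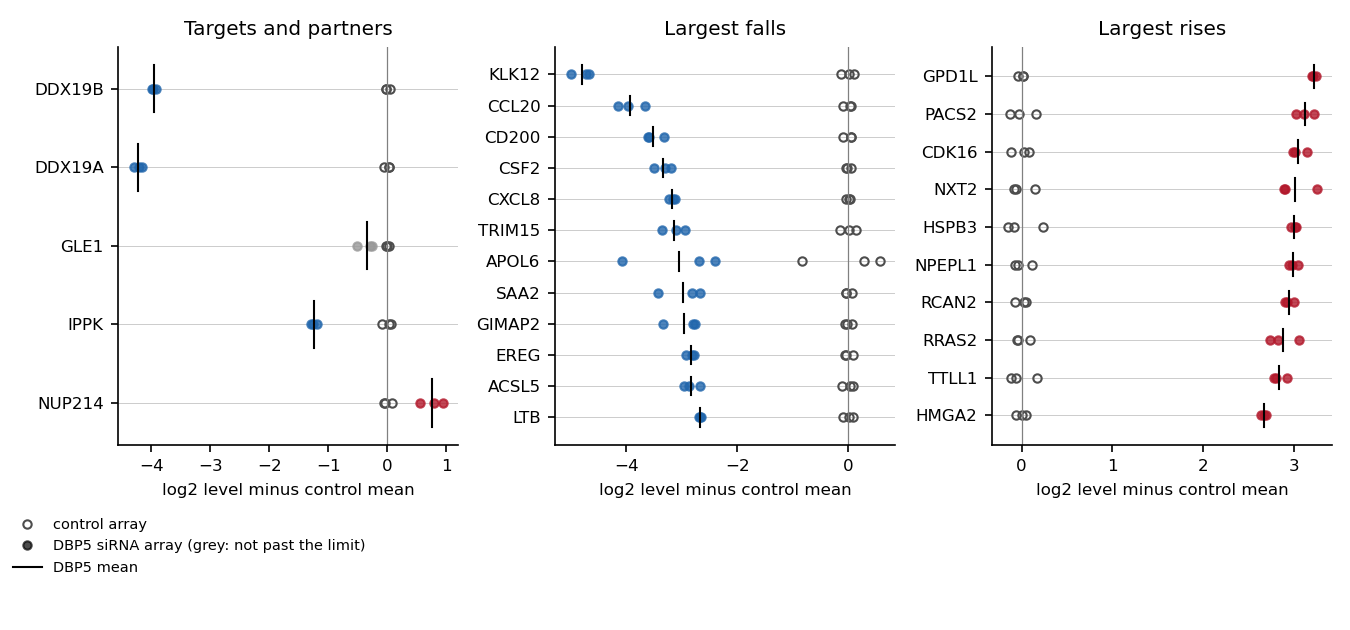
Log2 level minus the control mean, for named genes, on each of the 3 control (open points) and 3 DBP5 arrays (filled, grey where not past the test), with the DBP5 mean as a black bar. In DDX19B, DDX19A, CCL20 and CXCL8 every DBP5 array lies below every control array, and in GPD1L and CDK16 above.

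Chemokine and cytokine mRNAs were mostly lower in the cytoplasm after DBP5 knock-down. Of 16 CXC and CC chemokines kept, 10 fell, 3 rose and 3 did not pass, with a median log2 difference of -0.67 against -0.02 over all genes tested. Among all genes 27.5% fell and 26.8% rose. CCL2, the monocyte chemokine, fell from 12.15, 12.19 and 12.20 to 9.86, 10.00 and 9.91 (ratio 0.209 ± 0.0103, adjusted p = 5.2e-09). CXCL3 went from 8.01, 8.04 and 8.00 to 6.05, 6.26 and 5.48 (ratio 0.236 ± 0.0627), CXCL2 had a ratio of 0.349 ± 0.0383 and CXCL1 of 0.622 ± 0.118, all neutrophil attractants of near-identical sequence that probes may not fully separate. Interleukins and colony-stimulating factors had a lower median still, -1.38, with 12 of 18 lower, 3 higher and 3 not past the test. IL6 fell from 8.62, 8.84 and 8.68 to 6.78, 6.71 and 6.53 (ratio 0.243 ± 0.0216, adjusted p = 4.4e-08). IL1A fell from 8.51, 8.65 and 8.70 to 6.13, 6.03 and 6.02 (ratio 0.169 ± 0.00677), and TNF from 7.12, 7.14 and 7.14 to 4.64, 4.68 and 4.64 (ratio 0.180 ± 0.00263). Every one of these genes separated the groups on all arrays, and 30.6% of all genes were separated in the same direction. IL1B was not well above background on any DBP5 array and was at least 5.78-fold lower.

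The chemokine and interleukin differences were also set against the GLE1 knock-down, where 26.5% of all genes were lower and 28% higher after DBP5 siRNA than after GLE1 siRNA. Of the 18 interleukins and growth factors 15 were lower after DBP5 than after GLE1 siRNA and 1 was higher (median -1.16), and of the chemokines 6 were lower and 1 higher. IL6 was 2.55 log2 units lower than after GLE1 siRNA (adjusted p = 1.0e-08), CXCL8 3.25 lower (1.1e-09) and CSF2 3.06 lower (5.9e-09). Against the IPPK knock-down, where 25.1% of all genes were lower and 23.8% higher, 7 of the interleukins and growth factors were lower and 4 higher (median -0.13), as were 8 and 5 of the chemokines (median -0.31). CXCL8 was 1.64 log2 units lower than after IPPK siRNA (adjusted p = 9.1e-08) and CSF2 1.26 lower (3.2e-06), while IL1A and TNF did not pass the test (adjusted p = 0.944 and 0.707). Each of these comparisons has the same DBP5 arrays in it.

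NF-kappaB is the transcription factor family that switches on many of these cytokine genes, and its feedback inhibitors are its own targets. In the list of its subunits and inhibitors 13 of 23 genes fell, 2 rose and 8 did not pass (median -0.37). That was 56.5% lower and 8.70% higher, beside 27.5% and 26.8% of all genes. The subunit RELA was at 11.48, 11.54 and 11.64 in control and 11.47, 11.84 and 11.90 after DBP5 siRNA, with overlapping groups (adjusted p = 0.168), and RELB missed the test as well (ratio 1.10, adjusted p = 0.0590). REL had a ratio of 0.668 ± 0.0909 (adjusted p = 0.00137). TNFAIP3, the deubiquitinase A20 that shuts the pathway off, fell from 9.76, 9.72 and 9.81 to 8.74, 8.50 and 8.79 (ratio 0.472 ± 0.0507, adjusted p = 9.5e-07). The adaptor genes TRAF1 (0.407 ± 0.0418) and TRAF5 (0.574 ± 0.00664) and the ubiquitin ligase gene BIRC2 (0.645 ± 0.0352) also fell. TRAF1 was 3.34 log2 units lower than after GLE1 siRNA and 4.53 lower than after IPPK siRNA (adjusted p = 1.4e-08 and 7.5e-09).

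The promoters of 2 genes that fell are printed to show the NF-kappaB match they hold, from 250 bases before to 50 after the start in RefSeq's GRCh38.p14 annotation. The pattern searched was GGANTTTCC on both strands, in capitals. It was found in 5 of the 12 chemokine genes with a promoter on file (41.7%: CXCL1, CXCL2, CXCL3, CXCL5 and CXCL8), in 2 of 11 interleukin genes (IL6 and IL32) and in 9 of 20 genes of the NF-kappaB list (45.0%), against 2.29% of the 12855 tested genes with a promoter. Among all genes that fell the share was 3.02%, and among all that rose 1.86%. Not every gene with a match fell. IL32 rose (log2 difference 0.50, adjusted p = 5.5e-04), and NFKB1, NFKB2 and TNIP1 did not pass, all named after their values were seen. In CXCL8 (chr4:73740319-73740618, plus strand) the match begins 91 bases before the start, and in IL6 (chr7:22726950-22727249, plus strand) 72 bases before it. A match describes letters in the window and no more, and the share in a list depends on how the list was picked.
CXCL8: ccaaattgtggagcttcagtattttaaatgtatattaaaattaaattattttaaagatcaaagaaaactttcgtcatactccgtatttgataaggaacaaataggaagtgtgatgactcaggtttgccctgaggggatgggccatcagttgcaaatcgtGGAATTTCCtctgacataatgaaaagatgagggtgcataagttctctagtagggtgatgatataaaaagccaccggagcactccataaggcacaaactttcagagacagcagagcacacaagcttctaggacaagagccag
IL6: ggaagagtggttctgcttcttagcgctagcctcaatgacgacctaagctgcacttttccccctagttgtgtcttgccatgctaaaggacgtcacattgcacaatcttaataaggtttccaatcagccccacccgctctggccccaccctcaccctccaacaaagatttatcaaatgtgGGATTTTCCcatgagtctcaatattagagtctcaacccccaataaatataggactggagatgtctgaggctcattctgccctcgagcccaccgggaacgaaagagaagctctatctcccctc

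Interferon-stimulated and antigen presentation genes, which cells use against viruses, followed the same direction, with 26 of 41 lower, 5 higher and 10 not past the test (median -0.41). The shares were 63.4% lower and 12.2% higher, beside 27.5% and 26.8% of all genes. PSMB9, an immunoproteasome subunit, fell from 12.01, 12.08 and 11.89 to 10.00, 10.03 and 10.05 (ratio 0.255 ± 0.00435, adjusted p = 5.2e-09). IFI44 had a ratio of 0.275 ± 0.0267 and IRF1, a transcription factor of the interferon response, one of 0.789 ± 0.0911. OAS1, a sensor of double-stranded RNA, was at least 3.43-fold lower, with no DBP5 array well above background. OAS2 fell by the probe to NM_001032731 (ratio 0.211 ± 0.0195), while its probe to NM_002535 did not pass (ratio 1.07, adjusted p = 0.832). Against the GLE1 knock-down 27 of the 41 genes were lower and 4 higher, beside 26.5% and 28% of all genes. Against the IPPK knock-down 17 were lower and 7 higher, beside 25.1% and 23.8%.

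Sensors of foreign RNA and their adaptors fell in 10 of 20 cases, with 4 higher and 6 not past the test (median -0.24). TLR3, the endosomal sensor of double-stranded RNA, fell from 7.11, 7.31 and 7.07 to 5.20, 5.09 and 5.04 (ratio 0.241 ± 0.0144, adjusted p = 3.3e-08). It was 1.47 log2 units below the GLE1 and 2.50 below the IPPK knock-down (adjusted p = 2.7e-07 and 2.0e-08). IFIH1, the cytosolic sensor MDA5, fell from 8.24, 8.41 and 8.36 to 7.26, 7.07 and 7.22 (ratio 0.449 ± 0.0308). The kinase gene IRAK2 (0.447 ± 0.0741), TLR6 (0.481 ± 0.00291) and TLR1 (0.721 ± 0.0338) also fell. On all of these genes every DBP5 array lay below every control array, as on 30.6% of all genes.

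Immediate early genes, transcribed within minutes of a stimulus, gave 13 lower, 2 higher and 7 not past the test of 22 (median -0.27). In percent this was 59.1 lower and 9.09 higher, beside 27.5% and 26.8% of all genes. FOS fell from 9.32, 9.35 and 9.42 to 8.66, 8.90 and 8.71 (ratio 0.657 ± 0.0602, adjusted p = 2.3e-05), and its relative FOSB had a ratio of 0.771. FOSL1 had one of 0.851 (adjusted p = 0.0369) but missed the test with the 6 arrays alone, with no filter on dim probes and without control array 1 or 3, DBP5 array 1 or IPPK array 3. DUSP5, a phosphatase that turns off ERK, fell from 10.85, 10.86 and 10.84 to 9.51, 9.43 and 9.27 (ratio 0.367 ± 0.0310). The ratio was 0.422 ± 0.0290 for the nuclear receptor gene NR4A2, 0.425 ± 0.0361 for IER3 and 0.506 ± 0.00488 for IER5. The AP-1 pattern TGANTCA lay in 1 of 16 promoters of the list (6.25%) and in 7.94% of all.

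Genes of DNA replication and of the cell cycle were mostly lower. Of 49 genes of replication licensing and the fork 34 fell, 6 rose and 9 did not pass (median -0.52). Thus 69.4% fell and 12.2% rose, beside 27.5% and 26.8% of all genes. The helicase subunit MCM3 fell from 15.34, 15.39 and 15.36 to 14.54, 14.52 and 14.56 (ratio 0.566 ± 0.00910, adjusted p = 1.3e-07), MCM6 from 14.20, 14.27 and 14.12 to 13.04, 12.99 and 12.81 (ratio 0.419 ± 0.0348), and MCM4 had a ratio of 0.710 ± 0.0379. PRIM1, the primase that starts each new strand, fell most of the list, from 13.46, 13.58 and 13.44 to 12.08, 12.17 and 12.04 (ratio 0.379 ± 0.0187, adjusted p = 3.9e-08). MCM10 had a ratio of 0.401 ± 0.0468. CDC6, which loads the helicase on origins, rose instead, from 6.31, 6.46 and 6.54 to 7.44, 7.62 and 7.52 (ratio 2.13 ± 0.133, adjusted p = 2.3e-05).

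Regulators of the step from G1 into S phase fell in 20 of 29 cases, with 4 higher (median -0.44). For this and the next lists, 27.5% of all genes were lower and 26.8% higher. E2F8, a repressor of the E2F family, had a ratio of 0.316 ± 0.0397, the kinase gene CDK6 one of 0.380 ± 0.0471 and the cyclin gene CCNE2 one of 0.412 ± 0.0278. The D-type cyclins fell less, CCND1 to 0.625 ± 0.0471, CCND2 to 0.784 ± 0.0466 and CCND3 to 0.776 ± 0.0615. CCND2 was 2.33 log2 units lower than after GLE1 siRNA and 1.49 lower than after IPPK siRNA (adjusted p = 4.2e-09 and 1.0e-07). Most genes of these lists were higher than after GLE1 siRNA, 18 of 29 G1/S regulators with 5 lower (median 0.33), 42 of 49 replication genes with 1 lower (0.63), 11 of 16 deoxynucleotide genes with 2 lower (0.55) and 35 of 44 histones with 2 lower (0.58). Against IPPK siRNA they were more often lower, with 13 lower and 5 higher of the G1/S regulators (median -0.09), 23 and 7 of the replication genes (-0.19), 7 and 1 of the deoxynucleotide genes (-0.02) and 23 and none of the histones (-0.22). All genes gave 26.5% lower and 28% higher than after GLE1 siRNA, and 25.1% and 23.8% than after IPPK siRNA. Deoxynucleotide synthesis had 9 lower, 1 higher and 6 not past the test of 16 (median -0.37). RRM2, the regulated subunit of ribonucleotide reductase, fell from 12.81, 12.74 and 12.80 to 11.64, 11.73 and 11.43 (ratio 0.439 ± 0.0468, adjusted p = 3.5e-07), RRM1 had a ratio of 0.710 ± 0.00754, and the salvage kinase gene DCK rose from 7.55, 7.64 and 7.53 to 9.29, 8.96 and 8.96 (ratio 2.83 ± 0.392). Replication-dependent histones fell in 30 of 44 genes, with 4 higher (median -0.49). The linker histone gene H1-1 fell from 15.65, 15.56 and 15.61 to 14.04, 13.83 and 14.30 (ratio 0.342 ± 0.0575), while H1-2 did not pass (ratio 0.910, adjusted p = 0.0973). Histone copies are alike, so single members are uncertain.

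The E2F pattern TTTNGCGC, searched on both strands, was in the promoters of 17 of 43 replication genes (39.5%) and 5 of 22 G1/S genes (22.7%). It was in 3.21% of all tested genes whose promoter was searched, 3.98% of those that fell and 2.97% of those that rose. The lists hold genes picked for their function, so their shares say nothing of the knock-down. MCM6 (chr2:135876394-135876693, minus strand) is printed because it held 4 matches, which overlap in pairs and begin 152, 148, 90 and 86 bases before the start. E2F2 (chr1:23531184-23531483, minus strand), itself a factor of the family, held 2 overlapping ones at 42 and 38 bases. E2F2 mRNA was at 14.34, 14.54 and 14.40 in control and at 11.74, 11.84 and 11.79 after DBP5 siRNA (ratio 0.160 ± 0.00565, adjusted p = 2.2e-09). Of the 17 replication genes with a match 12 fell, 2 rose (CDC6 and GMNN) and 3 did not pass (RFC1, POLE and POLE2).
MCM6: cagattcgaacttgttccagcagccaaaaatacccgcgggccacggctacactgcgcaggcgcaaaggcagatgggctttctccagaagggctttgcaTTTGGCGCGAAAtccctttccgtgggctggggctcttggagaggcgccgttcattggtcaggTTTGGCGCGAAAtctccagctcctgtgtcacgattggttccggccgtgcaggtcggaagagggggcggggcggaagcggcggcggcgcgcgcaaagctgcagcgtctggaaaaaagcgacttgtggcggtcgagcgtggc
E2F2: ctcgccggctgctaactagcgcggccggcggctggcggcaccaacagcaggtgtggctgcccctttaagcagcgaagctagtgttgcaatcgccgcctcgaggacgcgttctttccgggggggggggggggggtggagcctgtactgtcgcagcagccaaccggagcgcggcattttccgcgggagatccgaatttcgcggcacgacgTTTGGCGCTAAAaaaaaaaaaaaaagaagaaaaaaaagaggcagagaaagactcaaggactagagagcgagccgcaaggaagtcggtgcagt

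Mitotic spindle and kinetochore genes gave the highest share of falls among the cell cycle lists, 39 of 45, with 2 higher and 4 not past the test (median -0.45). This was 86.7% lower and 4.44% higher, beside 27.5% and 26.8% of all genes. ECT2, the exchange factor that starts the cleavage furrow, fell from 10.55, 10.56 and 10.57 to 9.48, 9.31 and 9.20 (ratio 0.427 ± 0.0414, adjusted p = 2.0e-07). The NDC80 complex members SPC25 (0.464 ± 0.0396) and SPC24 (0.466) and the microtubule binder NUSAP1 (0.478 ± 0.0292) fell to a like degree. The kinases AURKA (0.778 ± 0.0351) and AURKB (0.670 ± 0.0306) fell less. Of the 45 genes 40 were higher after DBP5 than after GLE1 siRNA and none was lower (median 0.95), and against IPPK siRNA 12 were lower and 14 higher (median -0.06). Among all genes 28% were higher and 26.5% lower than after GLE1 siRNA, and 25.1% were lower and 23.8% higher than after IPPK siRNA.

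DNA repair lists did not share one direction. Homologous recombination and Fanconi anaemia genes fell in 23 of 32 cases, with 3 higher (median -0.49). Beside them stand 27.5% of all genes lower and 26.8% higher. BRCA1 fell from 11.40, 11.52 and 11.40 to 10.64, 10.67 and 10.69 (ratio 0.586 ± 0.0111, adjusted p = 7.6e-07), EXO1, the exonuclease that resects ends, had a ratio of 0.485 ± 0.0195, FANCE one of 0.453 ± 0.0292 and XRCC2 one of 0.462 ± 0.0615. BRCA2 ran the other way, from 7.04, 7.28 and 7.22 to 7.38, 7.47 and 7.53 (ratio 1.21 ± 0.0612, adjusted p = 0.0189), but missed the test without control array 1 or DBP5 array 3. FANCC fell by its probe to NM_000136 (0.357 ± 0.0244), while its probe to NM_001243744 did not pass (ratio 1.16, adjusted p = 0.0959). Checkpoint genes gave 10 lower and 4 higher of 16 (median -0.42), with the kinase CHEK1 at a ratio of 0.532 ± 0.0139 and its activator kinase ATR higher, from 9.84, 9.87 and 9.85 to 10.88, 10.80 and 10.77 (ratio 1.95 ± 0.0810, adjusted p = 5.0e-08). The probes of ATM moved in opposite directions (ratios 0.649 and 1.41, adjusted p = 1.2e-04 and 0.00122). Mismatch repair had 4 lower and 3 higher of 9 (44.4% and 33.3%). It is a short list, and its median of -0.08 was near the -0.02 of all genes.

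Nucleotide excision repair, which removes bulky lesions, had 11 of 18 genes higher, 3 lower and 4 not past the test (median 0.27). So 61.1% were higher and 16.7% lower, beside 26.8% and 27.5% of all genes. The lesion sensor XPC rose from 9.63, 9.57 and 9.62 to 9.93, 10.08 and 10.17 (ratio 1.37 ± 0.111, adjusted p = 1.8e-04). ERCC8 (1.59 ± 0.113), the nuclease ERCC4 (1.56 ± 0.0195) and the TFIIH subunit GTF2H3 (1.47 ± 0.0489) rose as well. DDB1, the adaptor of a ubiquitin ligase, fell from 13.73, 13.61 and 13.72 to 12.70, 12.94 and 12.83 (ratio 0.550 ± 0.0457, adjusted p = 2.0e-06).

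Targets of p53, the factor that halts the cell cycle after damage, were mostly higher, 17 of 24, with 2 lower and 5 not past the test (median 0.50). In the list 70.8% were higher and 8.33% lower, beside 26.8% and 27.5% of all genes. CDKN1A, the cyclin-dependent kinase inhibitor p21, rose from 9.51, 9.31 and 9.37 to 9.97, 10.06 and 9.92 (ratio 1.5 ± 0.0742, adjusted p = 9.6e-05). MDM2, the ligase that degrades p53, had a ratio of 1.40 ± 0.0785. SESN1, a stress-induced inhibitor of growth signalling, rose from 8.41, 8.37 and 8.41 to 9.75, 9.82 and 9.83 (ratio 2.65 ± 0.0809, adjusted p = 7.5e-09). TIGAR (2.79 ± 0.311), which slows glycolysis, and ZMAT3 (2.71 ± 0.366) rose as much. The members that fell were the death receptor gene TNFRSF10B, from 13.18, 13.08 and 13.03 to 12.02, 11.96 and 11.92 (ratio 0.458 ± 0.0151), and the secreted factor GDF15 (0.611 ± 0.0336). Against the IPPK knock-down 8 of the 24 were lower and 7 higher (median 0.02), beside 25.1% and 23.8% of all genes. Against the GLE1 knock-down 16 were lower and 2 higher (median -0.55), beside 26.5% and 28% of all genes. CDKN1A was 1.46 log2 units lower than after GLE1 siRNA (adjusted p = 1.3e-07).

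Genes of cell contacts and of the actin skeleton were more often higher than lower. Adherens and gap junction genes had the highest median of the 41 lists, 0.79, with 12 of 19 higher and 5 lower. Higher were 63.2% and lower 26.3%, beside 26.8% and 27.5% of all genes. CDH4, a cadherin, rose from 9.72, 9.75 and 9.96 to 11.27, 11.51 and 11.72 (ratio 3.22 ± 0.511, adjusted p = 1.3e-06). GJA1, the gap junction protein connexin 43, rose from 8.73, 8.84 and 8.58 to 10.32, 10.11 and 10.02 (ratio 2.70 ± 0.289). CDH2 had a ratio of 1.40 ± 0.250, CDH1 was at least 1.58-fold higher and CDH6 at least 2.72-fold higher, both not well above background on any control array. With normexp CDH1 was at a log2 difference of 0.18 and missed the test, so its bound holds for the processed signals alone. NECTIN2 rose by its probe to NM_001042724 (5.76 ± 0.556), while its probe to NM_002856 gave 1.03 (adjusted p = 0.730).

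Integrins and focal adhesion genes had 14 higher, 5 lower and 14 not past the test of 33 (median 0.18). Their 42.4% higher and 15.2% lower stand beside 26.8% and 27.5% of all genes. Vinculin, VCL, which links integrins to actin, had a ratio of 4.21 ± 0.247 (adjusted p = 4.6e-08). Each DBP5 array lay above each control array, as for 28.5% of all genes. The parvin PARVB, of the same adhesions, rose from 7.70, 7.62 and 7.84 to 9.63, 9.92 and 9.66 (ratio 4.05 ± 0.470), and PARVA rose with it (3.25 ± 0.394). The collagen receptors ITGA1 (0.239 ± 0.0474) and ITGA2 (0.393 ± 0.0202) fell, and ITGA3, a laminin receptor, rose (1.74 ± 0.119). Actin regulators and related GTPases had 20 higher and 9 lower of 44 (median 0.20). The crosslinker ACTN1 rose from 11.78, 11.80 and 12.08 to 13.70, 13.89 and 14.34 (ratio 4.26 ± 1.02), RHOQ had a ratio of 3.00 ± 0.161, WASL one of 2.65 ± 0.225 and RHOB one of 2.38 ± 0.160. ACTB, beta-actin itself, did not pass (ratio 0.949 ± 0.0374, adjusted p = 0.444).

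SRF with its cofactor MKL1, now named MRTFA, drives many actin and muscle genes through the CArG box. Of 31 genes of that list 18 rose, 3 fell and 10 did not pass (median 0.39). It had 58.1% higher and 9.68% lower, beside 26.8% and 27.5% of all genes. The list shares VCL with the one before. CNN1, calponin, rose from 12.16, 12.29 and 12.21 to 13.78, 13.84 and 13.92 (ratio 3.09 ± 0.156, adjusted p = 7.4e-09). ACTA2, smooth muscle actin, had a ratio of 2.98 ± 0.262, and FHL2, a LIM protein, one of 2.30 ± 0.0232 (adjusted p = 4.1e-07). The factors MRTFA (1.58 ± 0.159) and MRTFB (1.82 ± 0.0322) rose too. SRF had a ratio of 1.39 ± 0.205 (adjusted p = 0.0233) but missed the test without control array 1 or 2 or DBP5 array 2 or 3. The CArG box was in 11 of 27 promoters of the list (40.7%), against 1.61% of all. It was in 1.67% of those of genes that fell and 1.66% of those of genes that rose. The list was picked as known targets of SRF, so its high share was set by that choice and says nothing of the knock-down. FHL2 (chr2:105438464-105438763, minus strand), printed as a member that rose, held it 101 bases before the start. Of the 11 members with the box 6 rose, none fell and 5 did not pass (CNN2, FHL1, SMTN, TGFB1I1 and EGR1).
FHL2: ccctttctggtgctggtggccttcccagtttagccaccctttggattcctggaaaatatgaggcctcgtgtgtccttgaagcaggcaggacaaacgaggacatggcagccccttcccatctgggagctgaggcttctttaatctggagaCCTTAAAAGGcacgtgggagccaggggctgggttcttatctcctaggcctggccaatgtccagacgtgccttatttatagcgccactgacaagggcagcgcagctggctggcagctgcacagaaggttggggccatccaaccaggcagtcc

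The matrix, TGF-beta and Hedgehog lists had 31.2% to 37.8% of their genes higher and 25.0% to 29.7% lower, beside 26.8% and 27.5% of all genes. Collagens, matrix metalloproteinases and crosslinking enzymes gave 14 higher and 11 lower of 39 (median 0.05). MMP9, a gelatinase, fell from 10.27, 10.33 and 10.36 to 8.80, 8.80 and 8.67 (ratio 0.339 ± 0.0166, adjusted p = 1.7e-07), MMP13 had a ratio of 0.314 ± 0.0392, and MMP10 was at least 2.94-fold lower. COL1A1 had a ratio of 0.767 ± 0.0535 and COL3A1 was at least 2.53-fold higher. Of the 39 genes 22 were lower than after GLE1 siRNA and 5 higher (median -0.41), beside 26.5% and 28% of all genes. While 8 were lower than after IPPK siRNA, 15 were higher (median 0.19), beside 25.1% and 23.8%. The TGF-beta and BMP pathway gave 14 higher and 11 lower of 37 (median -0.06). Its ligand TGFB2 rose from 8.09, 8.08 and 8.18 to 9.25, 8.95 and 9.37 (ratio 2.11 ± 0.308), the receptor BMPR2 rose (1.90 ± 0.0724), and the signal transducer SMAD3 fell from 11.53, 11.52 and 11.56 to 10.07, 10.22 and 10.03 (ratio 0.371 ± 0.0262, adjusted p = 1.2e-08). G proteins, adenylate cyclases and phospholipases C had 23 higher and 10 lower of 44 (median 0.28), with PLCB3 at 3.30 ± 0.623 and GNG11, a G protein gamma subunit, falling from 14.99, 15.15 and 15.09 to 12.50, 12.40 and 12.56 (ratio 0.166 ± 0.00952). Hedgehog genes gave 5 higher and 4 lower of 16 (median 0.09), among them the ligand-binding antagonist HHIP (0.399 ± 0.0296).

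Genes of the ATF4 and heat shock lists were more often lower than higher, while p53 targets had 17 of 24 higher and 2 lower and NRF2 targets 10 of 17 higher and 2 lower. Among all genes 27.5% were lower and 26.8% higher. ATF4 is the transcription factor that raises amino acid supply when translation initiation is limited, and 17 of 30 genes of the ATF4 and unfolded protein list fell, with 3 higher and 10 not past the test (median -0.50). ATF4 itself fell from 17.39, 17.36 and 17.44 to 16.45, 16.27 and 16.35 (ratio 0.487 ± 0.0317, adjusted p = 2.4e-07). CHAC1, which degrades glutathione, fell from 12.17, 12.11 and 12.13 to 10.14, 10.13 and 10.04 (ratio 0.244 ± 0.00981, adjusted p = 3.7e-09). Asparagine synthetase, ASNS, fell from 14.89, 14.96 and 14.87 to 13.46, 13.38 and 13.50 (ratio 0.363 ± 0.0159), and the pseudokinase TRIB3 had a ratio of 0.492 ± 0.0142. These genes did not overlap between the groups, and 30.6% of all genes lay apart in the same direction. Of the 30 genes 21 were lower than after IPPK siRNA and 1 was higher (median -0.62), with ASNS 2.08 log2 units lower (adjusted p = 3.9e-09). Against GLE1 siRNA 17 were lower and 5 higher (median -0.40). All genes gave 25.1% lower and 23.8% higher than after IPPK siRNA, and 26.5% and 28% than after GLE1 siRNA. DDIT3, which encodes CHOP, did not pass against control (ratio 0.697, adjusted p = 0.0793). Heat shock proteins and chaperones had 15 lower and 6 higher of 30 (median -0.15), for example HSPE1 (0.653 ± 0.0253). HSPA1A (0.638 ± 0.0342) and HSPA1B (0.715 ± 0.00634) are near-identical copies and may share signal. HSPA1A was 1.42 log2 units higher than after GLE1 siRNA (adjusted p = 7.5e-09).

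Metabolic lists differed in direction. Mevalonate and cholesterol genes had 17 of 28 higher and 6 lower (median 0.34). SQLE, squalene epoxidase, rose from 12.91, 12.93 and 12.86 to 14.23, 14.01 and 14.06 (ratio 2.30 ± 0.194, adjusted p = 1.2e-07), DHCR7 had a ratio of 2.29 ± 0.106, and SRD5A3, which makes dolichol, rose from 4.99, 5.35 and 5.09 to 7.13, 6.92 and 7.25 (ratio 3.88 ± 0.453). HMGCS1, near the start of the pathway, fell (0.660 ± 0.0145). Targets of NRF2, the regulator of antioxidant genes, had 10 of 17 higher and 2 lower (median 0.40). HMOX1, haem oxygenase, rose from 13.92, 13.88 and 13.66 to 14.85, 14.82 and 14.72 (ratio 1.96 ± 0.0940, adjusted p = 2.1e-06), yet was 2.09 log2 units below the GLE1 and 2.57 below the IPPK knock-down (adjusted p = 1.2e-08 and 9.6e-09). Hypoxia and glycolysis genes had 12 lower and 4 higher of 33 (median -0.16), with VEGFA at 0.392 ± 0.0440, CA9 at least 3.88-fold lower, and the muscle phosphofructokinase PFKM rising from 11.69, 11.85 and 11.73 to 13.82, 13.82 and 13.79 (ratio 4.16 ± 0.0539, adjusted p = 2.2e-09). Phospholipid synthesis gave 8 higher and 7 lower of 24 (median 0.10), near the shares of all genes (26.8% and 27.5%). AGPAT5, an acyltransferase that makes phosphatidic acid, fell from 10.13, 10.27 and 10.03 to 7.97, 7.78 and 7.85 (ratio 0.206 ± 0.0144), and CDS1 (0.338 ± 0.0145) and its paralog CDS2 (1.88 ± 0.165) went opposite ways.

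Subunits of large complexes had medians near 0. Of 75 oxidative phosphorylation subunits 31 were higher, 7 lower and 37 not past the test (median 0.13), with NDUFA11 at 2.07 ± 0.0939 and NDUFB10 at 2.04 ± 0.0557, both of complex I. Mitochondrial ribosomal proteins gave 21 lower and 17 higher of 75 (median -0.05), 28.0% and 22.7% beside 27.5% and 26.8% of all genes, such as MRPL42 (0.531 ± 0.0265) and MRPS14 (1.76 ± 0.0721). Proteasome subunits gave 13 lower and 4 higher of 32 (median -0.05), with PSMD8 at 1.91 ± 0.109. Cytosolic ribosomal proteins were the least changed list, with none of 76 lower, 7 higher and 69 not past the test (median 0.03, and -0.04 with each array scaled to its 75th percentile). RPSA stood at 18.10, 18.08 and 18.20 in control and 18.16, 18.20 and 18.24 after DBP5 siRNA (adjusted p = 0.427). RPL27A was the only one of the 7 past 1.5-fold, from 8.80, 8.74 and 8.87 to 10.38, 10.35 and 10.32 (ratio 2.92 ± 0.0658, adjusted p = 7.4e-09), on a probe far dimmer than those of RPSA.

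The machinery that handles mRNA held changes in both directions. Export adaptors and receptors gave 11 lower, 8 higher and 11 not past the test of 30 (median -0.03). Their 36.7% lower and 26.7% higher stand beside 27.5% and 26.8% of all genes. NXF1, the bulk mRNA export receptor, rose slightly (ratio 1.21 ± 0.0905, adjusted p = 0.00284), and its partner NXT1 fell slightly (0.854 ± 0.0149), while NXT2 is among the largest rises above. A second NXT2 probe gave a ratio of 2.46. The cap-binding subunit NCBP2 fell from 11.48, 11.60 and 11.60 to 10.50, 10.39 and 10.42 (ratio 0.459 ± 0.0185, adjusted p = 4.5e-08). NCBP1, its partner, rose by one probe (1.87 ± 0.126) and did not pass by another (1.20, adjusted p = 0.106). Nucleoporins gave 12 lower and 9 higher of 31 (38.7% and 29.0%, median 0.01). The membrane nucleoporin NDC1 rose from 11.05, 11.22 and 11.10 to 13.08, 12.90 and 13.02 (ratio 3.67 ± 0.233), and SEC13 had a ratio of 2.41 ± 0.115. The median of the nucleoporins changed sign between processing settings.

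The counts of the helicase, exosome and splicing lists are to be read beside the 27.5% of all genes that were lower and the 26.8% that were higher, to which their shares were near (34.4% and 25.0% for helicases, 29.8% and 21.3% for splicing factors). Other DEAD-box helicases gave 11 lower, 8 higher and 13 not past the test of 32 (median -0.06). EIF4A1, the helicase of translation initiation, fell from 15.94, 15.90 and 15.98 to 15.18, 15.19 and 15.09 (ratio 0.581 ± 0.0228, adjusted p = 3.9e-07), DDX21, of the nucleolus, had a ratio of 0.511 ± 0.0321 and DDX10 one of 0.563 ± 0.0244. DDX3X did not pass (ratio 1.04, adjusted p = 0.566). The RNA exosome and its cofactors gave 7 lower and 4 higher of 20 (median -0.08), with the subunits EXOSC3 at 0.464 ± 0.0268 and EXOSC5 at 0.472 ± 0.0348. Splicing factors gave 14 lower and 10 higher of 47 (median -0.09), with SRSF9 at 2.48 ± 0.143 and SRSF6 at 0.520 ± 0.0352. Translation factors gave 15 higher and 7 lower of 42 (median 0.07). EIF3L rose from 12.88, 12.84 and 12.80 to 14.89, 14.98 and 14.89 (ratio 4.22 ± 0.154, adjusted p = 3.6e-09) and EIF5A had a ratio of 2.64 ± 0.280. The release factor ETF1, which DBP5 is known to bind, did not pass (ratio 0.891, adjusted p = 0.571), and its partner GSPT1 rose (1.59 ± 0.0314). Of 7 non-coding RNAs that normally stay in the nucleus 1 was higher, KCNQ1OT1 (1.56 ± 0.142). With the mean of its probes in place of the brightest, KCNQ1OT1 was at a log2 difference of 0.14 and missed the test. The others did not pass, with MALAT1 at a ratio of 0.692 (adjusted p = 0.0957).

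**Figure D3:**
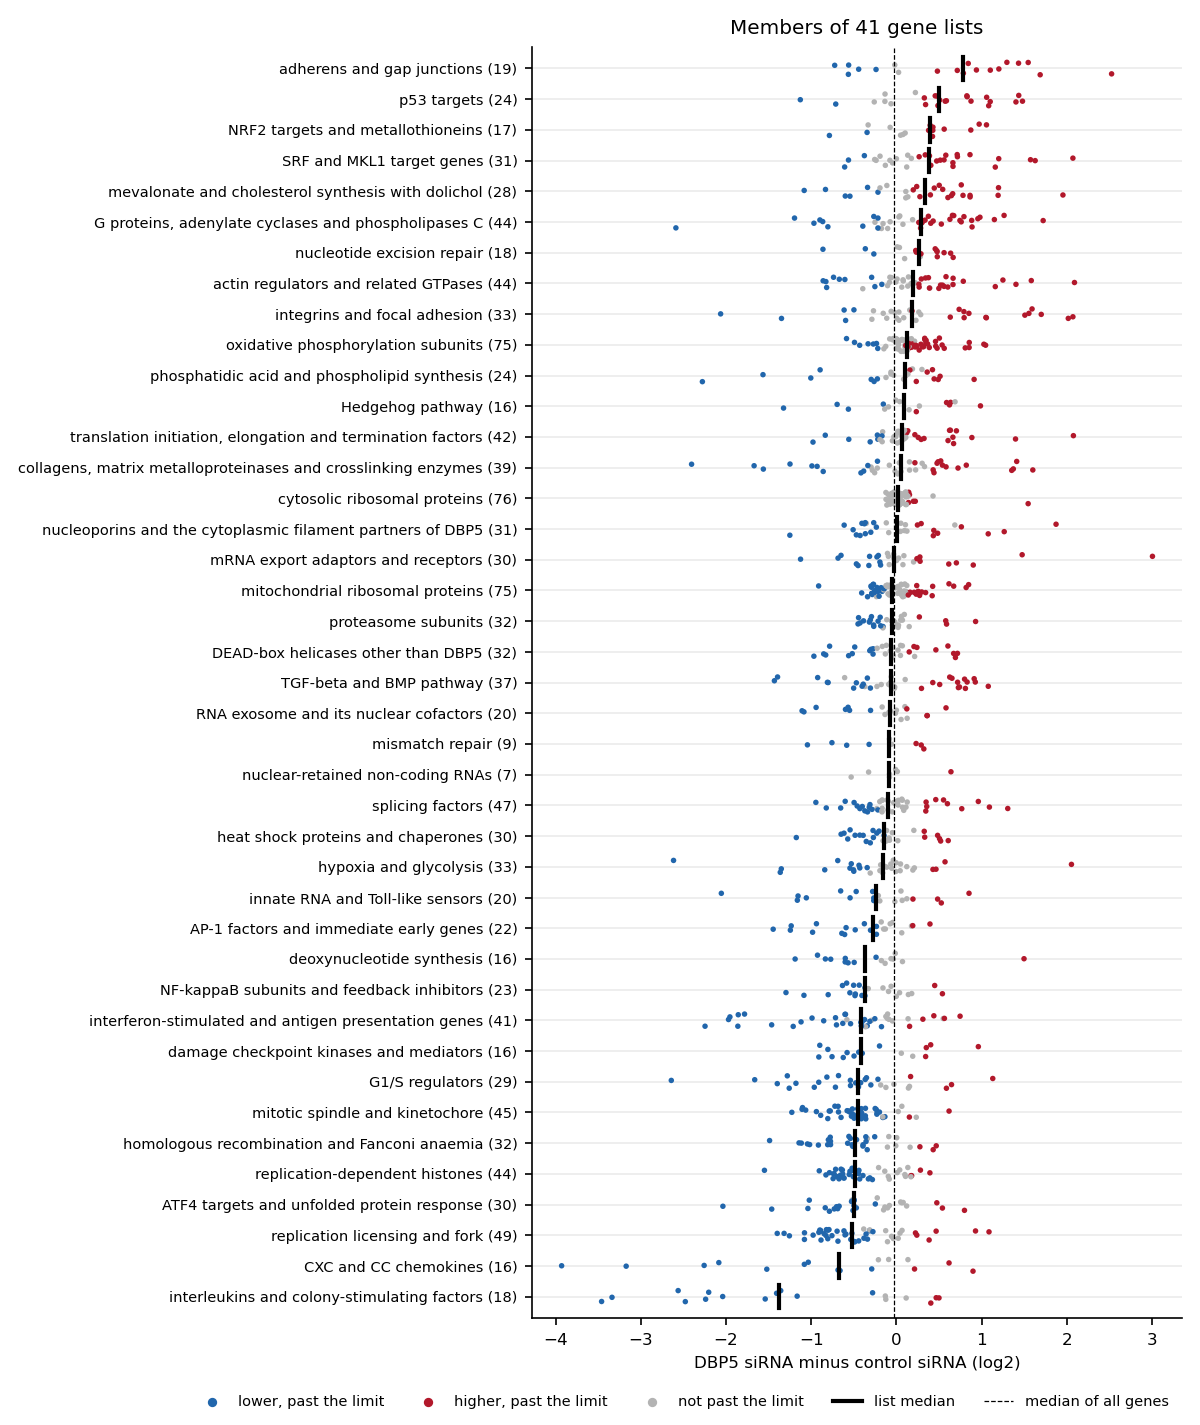
Log2 difference, DBP5 siRNA minus control siRNA, of each kept member of 41 gene lists, with the number of members after each name, the list median as a black bar and the median of all genes (-0.02) as a dashed line. Interleukins (-1.38) and chemokines (-0.67) have the lowest medians and adherens and gap junctions (0.79) the highest, while cytosolic ribosomal proteins sit near 0.

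A smaller set of genes differed from every other group. After DBP5 knock-down 1364 genes were lower than in control, GLE1 and IPPK arrays alike (6.55%), each difference past the test, and 1168 were higher than in all 3 (5.61%). The genes named here had the largest of the smallest differences. IL24, a cytokine of the interleukin 10 family, stood at 12.05, 12.06 and 12.15 in control and 9.89, 9.99 and 9.79 after DBP5 siRNA, 2.48 log2 units below GLE1 and 2.24 below IPPK knock-down (adjusted p = 9.6e-10 and 4.5e-09). TNFRSF21, death receptor 6, stood at 12.25, 12.17 and 12.20 in control and 9.92, 9.98 and 9.93 after DBP5 siRNA, 2.02 and 1.87 units lower. CA13, a carbonic anhydrase, went from 11.40, 11.45 and 11.36 to 9.07, 8.79 and 8.79, 4.06 and 2.49 units lower. None of these overlapped with any other group. CCL20, SAA1, the dehydrogenase gene DHRS11, the protease gene ADAMTS9 and the ubiquitin ligase adaptor gene SPOPL completed the 8.

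Among genes higher than in all other groups, PACS2, a sorting protein, went from 4.63, 4.92 and 4.74 to 7.87, 7.98 and 7.78, 1.61 log2 units above the GLE1 and 2.07 above the IPPK knock-down (adjusted p = 8.9e-08 and 3.6e-08). LRRC75B went from 7.88, 7.97 and 8.00 to 9.03, 9.19 and 9.34, 1.40 and 1.38 units higher. SULT1B1, a sulfotransferase, was not well above background on any control array and was at least 14.6-fold higher. The others were dim: RUNX1T1, RUBCNL and WDR86 were below 7 log2 units on every array, WDR86 at least 1.87-fold higher, and HEPACAM (ratio 4.60 ± 1.03) and SAMD15 (2.32 ± 0.130) likewise.

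**Figure D4:**
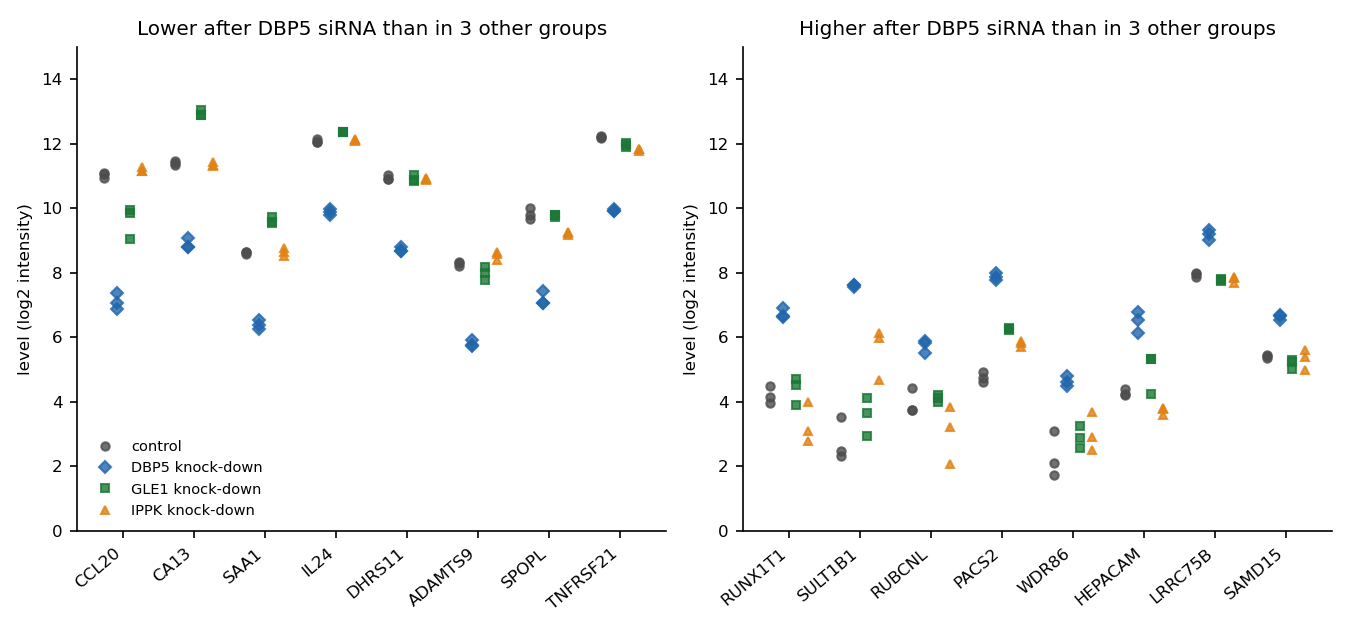
Level (log2 intensity) of 16 genes on each of the 12 arrays, 8 lower (left) and 8 higher (right) after DBP5 siRNA than in control, GLE1 and IPPK arrays; each point is 1 array. The DBP5 points lie apart from the other 9 in every gene, and several genes on the right are dim in the other groups.

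The study's real-time PCR genes were read on the arrays too. NUS1, part of the dolichol synthase, had a ratio of 0.562 ± 0.0246 on its brightest probe, and further NUS1 probes gave 0.549 and 0.222. HIF1A (0.621 ± 0.0183) and STAT2 (0.554 ± 0.0109) were 1.15 and 1.18 log2 units lower than after GLE1 siRNA (adjusted p = 1.9e-08 and 1.6e-08). SMN1 (0.557 ± 0.0800) was not told apart from the GLE1 knock-down (adjusted p = 0.561), and its probe may read the near-identical SMN2.

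Some genes had probes that moved apart. With each of 25875 probes tested on its own, 27.2% were lower and 27.1% higher. Of 3792 genes with at least 2 named probes well above background on all 6 arrays, 246 (6.49%) had one probe lower and another higher, both past the test, and in 38 both were beyond 1.5-fold. All probes were lower in 634 genes and higher in 707. The 6 genes with the largest gaps, chosen after their values were seen, are described by the transcript each probe was designed to.

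CC2D2A, a protein of the cilium base, fell from 11.16, 11.35 and 11.21 to 9.38, 9.20 and 9.27 on the probe to NM_020785 (ratio 0.258 ± 0.0167, adjusted p = 8.3e-09). On its probes to NM_001080522 it rose, with ratios of 3.73 ± 0.0524 and 4.37 ± 0.601. TFPI, the inhibitor of the tissue factor pathway of clotting, fell from 10.90, 11.04 and 10.74 to 10.06, 9.73 and 9.82 on NM_001032281 (ratio 0.492 ± 0.0602) and rose from 6.94, 7.13 and 6.83 to 10.22, 9.94 and 9.92 on NM_006287 (ratio 8.35 ± 1.00, adjusted p = 5.9e-09). The arrays of each siRNA gave the same direction for each probe. HMGA2, a chromatin protein, rose from 10.96, 11.01 and 10.90 to 13.65, 13.62 and 13.59 on NM_003483 (ratio 6.35 ± 0.118), while its probes to NM_003484 gave 0.485 ± 0.0578 and 0.998 ± 0.146. HECTD2 gave 0.315 and 0.793 on its probes to NM_173497 and 4.05 on NM_182765, the exocyst subunit EXOC7 gave 0.325 on NM_001282314 and 2.42 on NM_001013839 and 2.50 on NM_001145297, and the calcineurin subunit PPP3CB gave 0.429 on NM_021132 and 3.15 on NM_001289969. Probes report short stretches, and whether these differences are of splice forms, of transcript ends or of other RNA was not tested.

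**Figure D5:**
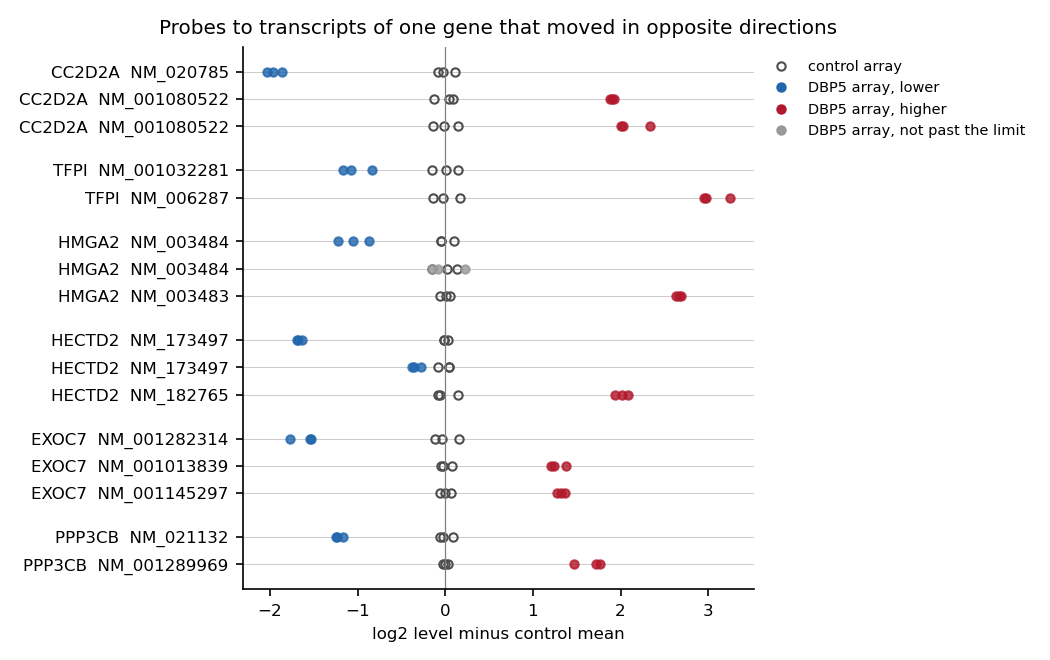
Log2 level of each array minus the control mean of that probe, for the probes of 6 genes named with the transcript each was designed to. Open points are control arrays and filled points DBP5 arrays (blue lower, red higher, grey not past the test); in each gene at least one probe lies to the left and one to the right of 0.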

How the data were processed

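Cytoplasmic RNA was labelled with Cy3 and hybridised to 1-colour Agilent whole human genome arrays. The deposited scanner files hold intensity values from Agilent Feature Extraction, already background-corrected by the authors' scanner software. A series table of processed log2 values, which the authors normalised with LOESS in R, served as an alternative. From the deposited intensities, log2 was taken, outlier and control spots were left out, spots of a probe were averaged and the 12 arrays were normalised by cyclic loess. Of 34127 probes 26449 (77.5%) were named through their RefSeq accession, and the others kept the array's name. The brightest probe by its mean over all 12 arrays stood for a gene, so a probe could be chosen because an siRNA raised it. Of 27522 genes 20818 were kept, those that cleared background in the whole triplicate of some siRNA. The precision of the values is limited by the number of arrays.

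limma 3.58.1 in R 4.3.3 was fitted to all 12 arrays with one mean per siRNA, and p-values were adjusted by Benjamini-Hochberg over all genes. Results were described with Python 3.11.15, and the code was tested on simulated data. A fold of a gene not well above background on any array of a group is given as a bound, against the higher of its own signal and the lowest signal well above background on each array. Same-numbered arrays share a slide by the labels of the files, and their deviations from the group means correlated at 0.318, 0.319 and 0.434. Arrays of different number gave -0.266 to -0.0496. Deviations within a group cancel out, so these negative values follow in part from the positive ones. The p-values are from the model without the slide, which is an alternative.

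Genes were named by rule: the target and its partners; the 12 largest falls and rises, DDX19A and DDX19B apart, among genes past the test, above background on all 6 arrays, with groups apart and a symbol other than LOC; from each list the first 3 members and up to 4 past the test with the largest differences; 8 genes lower and 8 higher than in all other groups; and the study's real-time PCR genes. A selection of them is given, and some items that the rule names are not reported here. The members and lists were chosen with earlier results of these data known. Alternatives were other scalings, background corrections, filters and probe rules, the slide as a replicate block, the 6 arrays alone, leaving out each array, and the methods' paired test.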

Additional observations from a re-analysis of the deposited data

How the results depend on the processing

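With the slide as a replicate block 6146 genes were lower and 5854 higher, and no count of genes moved by over 1.5 times. The methods' paired t-test, taken from the study's general statistics and not from its array section, which used rank products that were not run here, gave, on each gene alone, 4994 lower and 4623 higher at its unadjusted threshold. After Benjamini-Hochberg adjustment it gave 2604 lower and 2443 higher, and 1625 and 1710 at 1.5-fold or more. Normexp with an offset of 50, run on the median spot and background signals in place of the processed signals, so that signal and correction changed together, gave 1640 genes at least 1.5-fold lower and 1825 higher. Scaling to the 75th percentile gave 6242 lower and 5190 higher. Leaving out 1 array gave 5212 to 5834 lower and 5089 to 5608 higher. Of 193 named genes past the test 6 lost it under some alternative, FOSL1, SRF, BRCA2, CDH1, KCNQ1OT1 and ATM, and 6 that had missed it passed under one, GLE1, RELA, RELB, H1-2, MALAT1 and DDIT3. GLE1 was at a log2 difference of -0.24 with normexp and -0.38 with quantile normalization, both past the test. SRF, with a log2 difference of 0.38 and 0.48 without control array 1 or 2 and of 0.47 and 0.37 without DBP5 array 2 or 3, then missed the test. BRCA2 missed it without control array 1 (0.20) or DBP5 array 3 (0.24), FOSL1 without control array 1 (-0.25) or 3 or DBP5 array 1 (-0.16 each), and RELA passed without DBP5 array 1 (0.31). ACTB, not past the test, ranged from -0.13 to 0.02 when 1 array was left out and changed sign without control array 3. The median of 2 of 41 lists, nucleoporins and cytosolic ribosomal proteins, changed sign under some alternative, and of the 24 lists with a median beyond 0.15 none did. Dim genes limit the precision, and the cause of these changes was not tested.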
